A study of Mus musculus with 6 samples.

Results

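The 10 genes described here build, turn over or accompany the actin cytoskeleton. They were chosen by name out of the 18792 genes of the deposited table, and all 10 were present: *Actb* and *Actg1* (cytoplasmic actins), *Tmsb4x* and *Tmsb10* (thymosins), *Cfl1*, *Pfn1* and *Coro1a* (actin-binding proteins), *Arpc1b* and *Arpc2* (Arp2/3 complex subunits) and *Vim* (vimentin). The values come from droplet-based scRNA-seq of mouse spinal cord cells, in 2 libraries of Nd6 mice with experimental autoimmune encephalomyelitis (EAE), 2 of WT mice with EAE, 1 of Nd6 healthy controls and 1 of WT healthy controls. Nd6 mice carry a point mutation in the mitochondrially encoded complex I gene mt-Nd6 in all their cells, and EAE is an autoimmune inflammation of the CNS that was induced here by immunization with a myelin peptide. All mice were perfused with the transcription inhibitors actinomycin D and triptolide before the spinal cord was dissociated and myelin was removed, and the labels give neither the age of the mice nor how many were pooled in a library. A cell's name holds its barcode and 1 of 6 numbers, with no label that ties a number to a library. The 13614 cells were therefore treated as 1 pooled sample, with no comparison between genotypes or between EAE and control mice and no p-value, and the 6 sets defined by these numbers (called A to F, largest first) were used to see whether a value recurred.

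Actin monomers add to the ends of filaments and leave them again, and this cycle moves the cell edge, shapes processes and drives phagocytosis. Thymosins hold monomers in reserve, profilin hands them to growing ends, cofilin severs old filaments, and the Arp2/3 complex starts new branches. Microglia, the resident macrophages of the CNS, survey the tissue with actin-based processes, and infiltrating monocytes and T cells need the same machinery to crawl.

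Deposited values are whole numbers with totals of 687 to 1578 per cell (median 962) and 138 to 1287 genes above 0 (median 547). Whether they are UMI counts or were changed by a further step is not described. They are therefore called values here, and a level is the mean value per cell. Cells were gated on lineage markers, which gave 9862 myeloid cells, 377 oligodendrocytes, 277 endothelial cells, 123 ependymal cells, 87 T or NK cells, 84 astrocytes and 62 pericytes or smooth muscle cells. The gating itself fixes that these markers are higher in their gates, so their levels are no check of the names. Among genes outside the lists, those that led the gates included *Mlc1* and *Ednrb* in astrocytes and *Bcl11b* and *Cd40lg* in T or NK cells, given here as a description. Another 2428 cells carried markers of 2 lineages and were left out as ambiguous, 1472 of them in set A. Across sets, 18 barcodes occurred more than once, in 36 cells. RNA of myeloid cells was present in the other gates: the 13 myeloid markers had a median of 8.77% (ependymal cells) to 28.9% (astrocytes) of their myeloid level there. These markers also set the gates. For 9 myeloid genes that the gates did not use, the median was 8.48% (ependymal cells) to 34.8% (astrocytes). What part free RNA or attached cells had in this was not tested.

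*Tmsb4x* and *Tmsb10* encode 2 small monomer-binding peptides of the same family, and their levels parted between cell types. Their coding sequences are shown to place the difference between the genes, whose reads the table counts apart. They are given 5′ to 3′ without the stop codon, with capitals at the positions where the 2 differ, from the GENCODE annotation of GRCm38. *Tmsb4x* lies at chrX:167207093-167209315 and *Tmsb10* at chr6:72957347-72958748, both on the minus strand.
Tmsb4x: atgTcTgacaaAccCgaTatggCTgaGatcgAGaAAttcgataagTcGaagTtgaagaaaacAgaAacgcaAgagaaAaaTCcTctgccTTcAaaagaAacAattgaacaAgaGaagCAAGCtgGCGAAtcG
Tmsb10: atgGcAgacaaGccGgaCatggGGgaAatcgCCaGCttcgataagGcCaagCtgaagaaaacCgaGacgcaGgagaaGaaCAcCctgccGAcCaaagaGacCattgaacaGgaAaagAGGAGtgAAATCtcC
Of 132 coding bases, 92 were identical (69.7%) and 40 differed. Near the 3′ end, where the reads of this protocol start, *Tmsb10* shared 157 of 311 windows of 90 bases (50.5%) with the gene models Gm3788 and Gm9844, whereas none of the other 9 genes shared a window with another gene. The level of *Tmsb10* is thus uncertain by the reads that the counting could have split, discarded or given to these copies.

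Against all other gated cells, myeloid cells had higher levels of *Coro1a*, *Arpc1b*, *Pfn1*, *Actb*, *Arpc2* and *Tmsb4x*, and lower levels of *Vim* and *Tmsb10*. *Coro1a*, which encodes a leukocyte coronin (chr7:126699773-126707787), was the only member at 2-fold or more, with 0.280 in myeloid cells and 0.119 in all other gated cells. That is 1 of 10 members higher and none lower, beside 12.6% of 3575 genes higher and 24.2% lower. *Arpc1b* (0.526 in myeloid cells, 0.269 in the others), *Pfn1* (0.778 and 0.437), *Actb* (4.15 and 2.46), *Arpc2* (0.482 and 0.291) and *Tmsb4x* (15.5 and 9.79) were 1.58 to 1.95 times as high in myeloid cells, and each was higher in all 6 sets. *Vim* (0.289 in myeloid cells, 0.552 in the others) and *Tmsb10* (0.693 and 1.06) were lower in all 6 sets. *Actg1* was level at a ratio of 1.00, and lower in 5 of 6 sets. *Cfl1* (0.851 in myeloid cells, 0.724 in the others) was 1.18 times as high, and lower in 1 of 6 sets. The median ratio of the 10 members was 1.62, beside 0.79 over all genes tested. The count depended on the sets: without set B it was 3, without set A 2 and without set E 0. At 1.5-fold, 6 members were higher and 2 lower, beside 19.3% and 39.1% of genes. With only cells that meet the study's stated filters, measured on the deposited values, the count at 2-fold was 3.

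**Figure D1:**
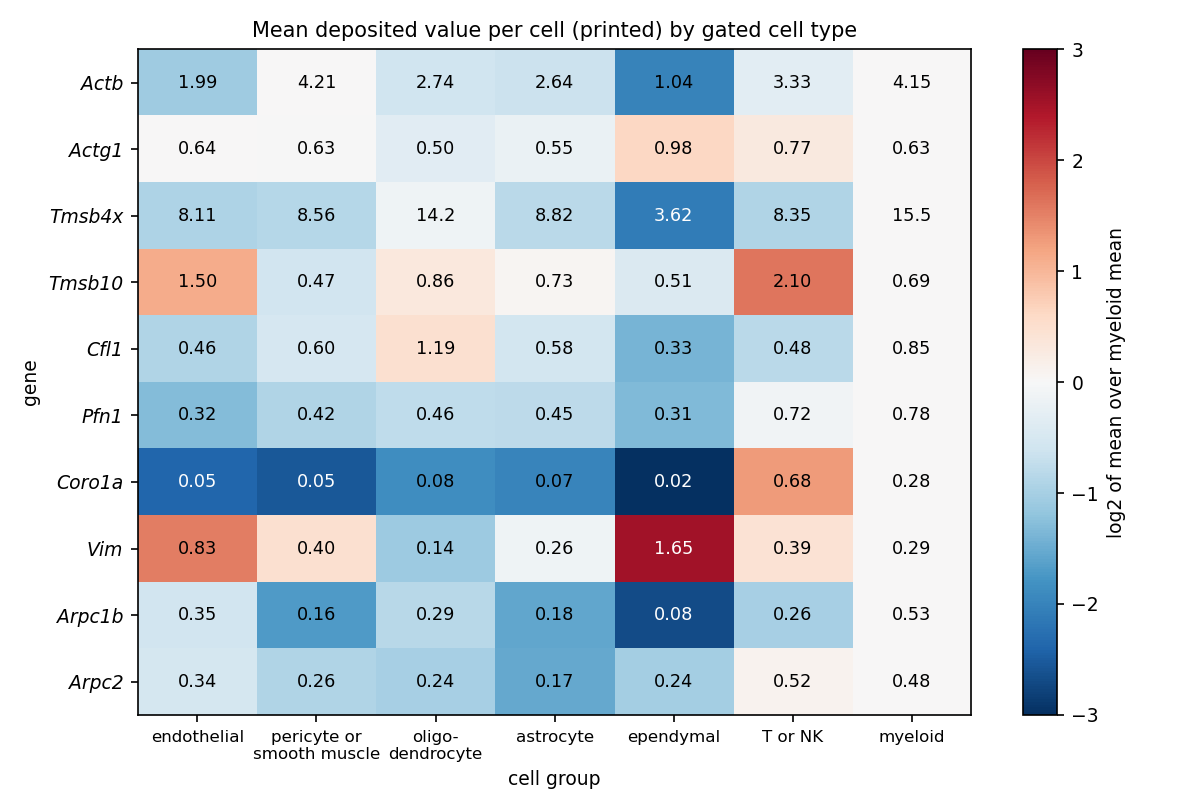
Mean deposited value per cell of each gene (rows) in 7 gated cell types (columns), printed in each field, with colour for the log2 of the mean over the myeloid mean. Vim stood out in ependymal (1.65) and endothelial cells, Tmsb10 in T or NK cells (2.10), and Coro1a was under 0.1 outside myeloid and T or NK cells.

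Vimentin forms the intermediate filaments of mesenchymal, endothelial and ependymal cells (*Vim*, chr2:13573927-13582826), and it had the widest range over cell types after *Coro1a*. *Vim* averaged 1.65 ± 2.08 in ependymal cells (SD over 123 cells) and 0.289 ± 0.612 in myeloid cells (SD over 9862 cells). Values above 0 were found in 65.9% of ependymal cells (exact 95% interval 56.8 to 74.2%) and in 22.4% of myeloid cells (21.6 to 23.2%). By set, ependymal *Vim* was 3.35 in set B, 1.27 in set D and 1.24 in set E, against 0.385, 0.0409 and 0.0389 in myeloid cells of these sets. The ependymal mean was the higher one in each of the 3 sets. Endothelial cells came next, with 0.811, 0.842, 0.902, 0.742, 0.712 and 1.10 in sets A to F, against 0.389, 0.385, 0.195, 0.0409, 0.0389 and 0.262 in myeloid cells. The endothelial level hardly moved from set to set, whereas the myeloid one spanned a far wider range, with sets D and E at its foot. *Vim* in T or NK cells (0.391) and myeloid cells could not be ordered, since they changed places between sets A and B. Astrocytes (0.262) were below myeloid cells in both sets compared, and pericytes or smooth muscle cells (0.403) could not be compared within a set. Oligodendrocytes had the lowest level, 0.135, with 0.0196 to 0.241 over the 6 sets, which overlapped the myeloid range.

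*Tmsb10* was highest in lymphocytes and endothelium. T or NK cells had 1.88 in set A and 2.15 in set B, against 0.648 and 0.919 in myeloid cells, with a ratio of 3.04 over all cells. Endothelial cells had 0.868, 1.39, 1.20, 1.81, 2.02 and 1.86 in sets A to F, against 0.648, 0.919, 0.470, 0.520, 0.482 and 0.764 in myeloid cells. Endothelial levels were higher in all 6 sets, by 1.34 to 4.18 times. *Tmsb4x*, by contrast, was lower in both types in every set compared: T or NK cells had 8.35 and endothelial cells 8.11, against 15.5 in myeloid cells. The ratio of *Tmsb10* to *Tmsb4x*, which compares groups of cells and not the 2 genes, was 0.252 in T or NK cells, 0.186 in endothelial cells, 0.142 in ependymal cells and 0.0447 in myeloid cells. Over sets it ran from 0.201 to 0.351 in T or NK cells, from 0.108 to 0.280 in endothelial cells and from 0.0302 to 0.0569 in myeloid cells. The myeloid range did not overlap either of the other 2. Oligodendrocytes kept *Tmsb4x* near the myeloid level, at 14.2, higher in 3 sets and lower in the other 3.

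*Coro1a* separated leukocytes from the other cells. It was above 0 in 47.1% of T or NK cells (exact 95% interval 36.3 to 58.1%) and in 23.1% of myeloid cells (22.3 to 23.9%). T or NK cells had 0.560 in set A and 0.780 in set B, against 0.251 and 0.363 in myeloid cells. In oligodendrocytes, endothelial cells, pericytes or smooth muscle cells, astrocytes and ependymal cells, *Coro1a* was above 0 in 1.63 to 7.14% of cells. This was 5.80 to 27.5% of its myeloid level. It was above the median share of the 13 myeloid markers in oligodendrocytes (27.5%, against 19.6% for the markers) and endothelial cells (19.3%, against 14.4%), below it in the other 3 types, and under the highest marker in all 5. These markers set the gates, so their share is fixed in part by the gating. Beside 9 myeloid genes that the gates did not use, *Coro1a* was above the median share in oligodendrocytes (24.4%). It was below that median in endothelial cells (21.2%) and in the other 3 types. No expression in these types is read from these values, and the part of free RNA in them was not tested. Ependymal cells of sets B, D and E had no value above 0 in 96 cells, which allows a share of up to 3.12% of cells with a value, for counting error only.

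**Figure D2:**
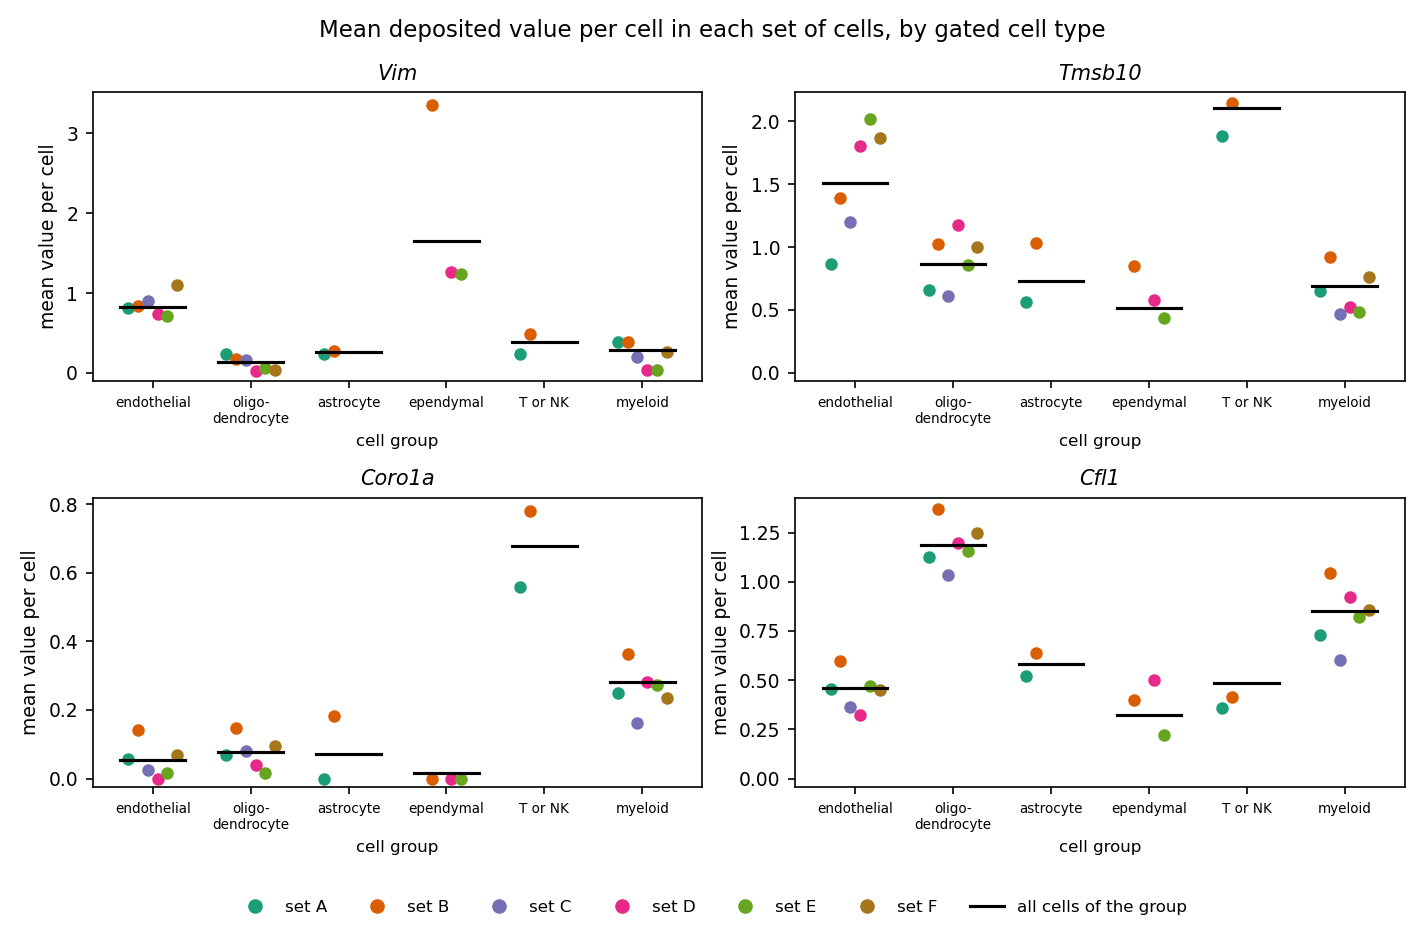
Mean value per cell of Vim, Tmsb10, Coro1a and Cfl1 in each set with 20 or more cells of a type (coloured points, sets A to F) and over all cells of the type (black lines). Endothelial Vim and Tmsb10 lie above the myeloid points of the same set in all 6 sets, oligodendrocyte Cfl1 does too, and myeloid Vim drops to 0.0409 and 0.0389 in sets D and E.

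Cofilin, the filament-severing protein encoded by *Cfl1* (chr19:5490455-5495201), was highest in oligodendrocytes. *Cfl1* was 1.19 in oligodendrocytes and 0.851 in myeloid cells, with 1.13, 1.37, 1.03, 1.20, 1.16 and 1.25 in oligodendrocytes of sets A to F against 0.730, 1.04, 0.602, 0.922, 0.820 and 0.855 in myeloid cells. Every set showed the same direction, by 1.30 to 1.71 times. In the remaining 5 types, *Cfl1* ran from 0.597 in pericytes or smooth muscle cells down to 0.325 in ependymal cells. In oligodendrocytes, no member was at 2-fold or more higher (19.4% of 3016 genes) and 2 were lower, *Coro1a* and *Vim* (28.6% of genes).

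The 2 cytoplasmic actins were not set by cell type in the same way. *Actb* was 4.21 in pericytes or smooth muscle cells and 1.04 in ependymal cells, against 4.15 in myeloid cells. In ependymal cells, *Actg1* was at its highest, 0.976, against 0.632 in myeloid cells. *Actg1* differed little elsewhere, between 0.501 in oligodendrocytes and 0.770 in T or NK cells. Ependymal *Actb* was 2.00 in set B, 0.50 in set D and 0.760 in set E, against 4.97, 5.60 and 5.38 in myeloid cells, while ependymal *Actg1* was 1.35, 1.08 and 0.740, against 0.867, 0.465 and 0.487. Ependymal cells were thus lower in *Actb* and higher in *Actg1* in all 3 sets. The ratio of *Actg1* to *Actb* was 0.938 in ependymal cells (0.675 to 2.15 over 3 sets), 0.321 in endothelial cells (0.176 to 0.424 over 6 sets) and 0.152 in myeloid cells (0.0831 to 0.214 over 6 sets). Ependymal and myeloid ranges did not overlap, whereas endothelial and myeloid ones did.

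*Pfn1* encodes profilin, and *Arpc1b* and *Arpc2* encode subunits of the Arp2/3 complex, of which *Arpc1b* is the isoform that blood cells use most. *Pfn1* was 0.724 in T or NK cells and 0.309 to 0.456 in the 5 non-leukocyte types, against 0.778 in myeloid cells, and T or NK and myeloid cells changed places between sets A and B. *Arpc1b* (chr5:145114215-145130705) ran from 0.0813 in ependymal cells to 0.354 in endothelial cells, against 0.526 in myeloid cells. *Arpc2* was 0.517 in T or NK cells and 0.167 to 0.336 in the non-leukocyte types, against 0.482 in myeloid cells, with T or NK and myeloid cells again in changing order. Over all cells, myeloid cells had the highest level of 3 of the 10 members among the 7 types, *Tmsb4x*, *Pfn1* and *Arpc1b*. Within sets this order did not always hold, since *Tmsb4x* was higher in oligodendrocytes in 3 of 6 sets, *Pfn1* in T or NK cells in 1 of 2 and *Arpc1b* in endothelial cells in 1 of 6.

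Counted at 2-fold against myeloid cells, endothelial cells had 2 members higher (*Vim*, *Tmsb10*) and 3 lower (*Coro1a*, *Pfn1*, *Actb*), beside 37.3% and 12.8% of 4166 genes, and with values scaled to 10000 per cell *Tmsb10* was 1.96 times as high, which left 1 higher. Ependymal cells had 1 higher (*Vim*) and 7 lower (*Coro1a*, *Arpc1b*, *Tmsb4x*, *Actb*, *Cfl1*, *Pfn1*, *Arpc2*), beside 50.6% and 19.2% of 4661 genes. Astrocytes had none higher and 3 lower (*Coro1a*, *Arpc1b*, *Arpc2*), beside 13.8% and 33.9% of 2896 genes. Pericytes or smooth muscle cells had none higher and 2 lower (*Coro1a*, *Arpc1b*), beside 30.1% and 23.5% of 3467 genes. T or NK cells had 2 higher (*Tmsb10*, *Coro1a*) and none lower, beside 50.2% and 18.6% of 4496 genes, and with values scaled to 10000 per cell also 2 lower. In ependymal cells and in pericytes or smooth muscle cells, *Coro1a* passed the 5% limit on cells above 0 only through the myeloid cells. The median over the 10 members was 0.39 in ependymal cells, beside 2.03 over all genes, and 1.00 in T or NK cells, beside 2.01. Ependymal, T or NK and endothelial cells had more genes above 0 per cell (medians 747, 727 and 637) than myeloid cells (516), and the part of this in the ratios over all genes was not tested.

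Other genes of the pathway were taken from 9 lists of 119 genes, 115 of them in the table, which hold none of the 10 members. Between myeloid and all other gated cells, 89 were tested, with 14 higher, 22 lower and a median ratio of 1.00, beside the 12.6% higher and 24.2% lower of all genes, so that the counts lay near the background. The highest were *Abi3* (4.17 times), a part of the WAVE complex that activates Arp2/3, *Plek* (4.08 times) and *Hcls1* (3.96 times), a leukocyte cortactin relative. All 7 other Arp2/3 genes were within 2-fold, with a median of 1.46. Tubulins and their regulators were the list furthest down in myeloid cells after the intermediate filaments, with 5 of 8 lower and a median of 0.309. In pericytes or smooth muscle cells, 4 of 5 genes of the actin and tropomyosin list were higher, among them smooth muscle actin, *Acta2*, at 1.95, against 0.0447 in myeloid cells. *Myl9*, a myosin light chain, was 2.48 there, against 0.0225 in myeloid cells, and *Myh11*, smooth muscle myosin, 0.758 against 0.00953. *Actb* and *Actg1* of these cells were close to the myeloid levels, at ratios of 1.01 and 0.99. Ependymal cells were highest in *Ezr*, which ties actin to the membrane (0.398, against 0.0242 in myeloid cells), and *Tubb4b*, a tubulin of cilia (0.837, against 0.0551). In T or NK cells, *Dock2*, which activates Rac in lymphocytes, was 2.56, against 0.243 in myeloid cells, and *Coro2a*, a coronin relative of *Coro1a*, was 0.506, against 0.0257. *Acta2*, *Myl9*, *Myh11*, *Ezr*, *Tubb4b* and *Coro2a* were above 0 in only 0.882 to 4.92% of myeloid cells. They thus passed the 5% limit only through the type in which they were high. *Abi3* (2.84% above 0 in all other gated cells) and *Hcls1* (3.31%) passed it only through the myeloid cells.

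Myeloid cells without *Top2a* or *Mki67* were divided by marker lists into 952 monocyte-like, 177 interferon-responsive, 1397 with very high *Apoe*, 1737 microglia-marked with raised *Apoe*, 3471 other myeloid and 1682 homeostatic cells with low *Apoe*. *Apoe* encodes the lipid carrier that microglia turn up in disease, and the limits were a value of 10 for raised and of 100 for very high. Raised *Apoe* cells had 3 or more homeostatic markers and no upper *Apoe* limit, whereas very high *Apoe* cells had fewer than 3 of these markers. These states thus differ in markers as well as in *Apoe*. States came unevenly from the sets: 906 of the monocyte-like cells lay in set B, 966 of those with very high *Apoe* in set A, and 877 and 714 of the homeostatic ones in sets D and E. State and set can be told apart only where a set holds 20 or more cells of both. The 5 comparisons below share the homeostatic cells, so their ratios are given side by side.

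*Vim* was higher in every state than in homeostatic cells and was the only member at 2-fold or more in all 5 comparisons. It was 0.492 in monocyte-like, 0.316 in interferon-responsive, 0.350 in very high *Apoe*, 0.309 in raised *Apoe* and 0.315 in other myeloid cells, against 0.0410 in homeostatic cells. Only 3.51% of homeostatic cells had a value above 0 (exact 95% interval 2.68 to 4.50%), so *Vim* passed the 5% limit only through the other states. In set B, *Vim* was 0.499 in monocyte-like, 0.375 in interferon-responsive, 0.309 in raised *Apoe* and 0.371 in other myeloid cells, against 0.118 in 51 homeostatic cells. In set F it was 0.222 in raised *Apoe* and 0.332 in other myeloid cells, against 0.0513 in 39 homeostatic cells. The direction held in both sets, at 2.62 to 6.47 times, smaller than the 7.52 to 12 times over all sets. Other myeloid cells of sets D and E had 0.0465 and 0.0265, against 0.0388 and 0.0378 in homeostatic cells there, so that low *Vim* in these 2 sets was shared by myeloid cells outside the homeostatic state.

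*Actb* and *Pfn1* were lower in cells with very high *Apoe* than in homeostatic cells. *Actb* was 2.19 in set A and 2.31 in set C among very high *Apoe* cells, against 7.92, 5.72, 5.44 and 5.79 in homeostatic cells of sets B, D, E and F. *Pfn1* was 0.453 and 0.321 in very high *Apoe* cells, against 1.31, 1.01, 0.987 and 0.821 in homeostatic cells. The set means of the 2 states did not overlap for either gene, but no set held 20 cells of both, so state and set cannot be told apart here. Raised *Apoe* cells, by comparison, had *Actb* at 5.10 in set B and 4.26 in set F, against 7.92 and 5.79 in homeostatic cells of the same sets. In sets A and C, raised *Apoe* cells had 2.36 and 3.04, against 2.19 and 2.31 in very high *Apoe* cells. Other myeloid cells of these sets had 3.588 and 3.435. In set A, monocyte-like cells (1.89) were lower still and interferon-responsive cells (4.29) higher. Low *Actb* in set A was thus not confined to very high *Apoe* cells.

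Monocyte-like and interferon-responsive cells had more *Tmsb10* and *Arpc1b* than homeostatic cells. *Tmsb10* was 0.973 in monocyte-like, 1.02 in interferon-responsive and 0.496 in homeostatic cells, and in set B 0.972, 0.992 and 0.647. *Arpc1b* was 0.683, 0.785 and 0.376 over all sets, and in set B 0.686, 0.858 and 0.627. Within set B the differences were thus smaller, at 1.5 and 1.53 times for *Tmsb10* and 1.09 and 1.37 times for *Arpc1b*. *Cfl1* and *Pfn1* were highest in interferon-responsive cells (1.41 and 1.31), against 0.882 and 1.00 in homeostatic cells, but in set B only 1.16 and 1.08 times as high as in homeostatic cells.

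*Coro1a* in monocyte-like and interferon-responsive cells turned round within sets. Over all sets, monocyte-like cells had 0.359, interferon-responsive cells 0.401, very high *Apoe* cells 0.230, raised *Apoe* cells 0.290 and other myeloid cells 0.236, against 0.313 in homeostatic cells. In set B, monocyte-like cells had 0.362, interferon-responsive cells 0.442 and raised *Apoe* cells 0.401, against 0.745 in homeostatic cells. In set F, raised *Apoe* cells had 0.232, against 0.513 in homeostatic cells. In sets B, D, E and F, other myeloid cells had 0.309, 0.163, 0.168 and 0.178, against 0.745, 0.294, 0.296 and 0.513 in homeostatic cells. *Coro1a* was thus higher in homeostatic cells in all 8 comparisons that could be made within a set, of which the 4 in set B rest on 51 homeostatic cells.

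**Figure D3:**
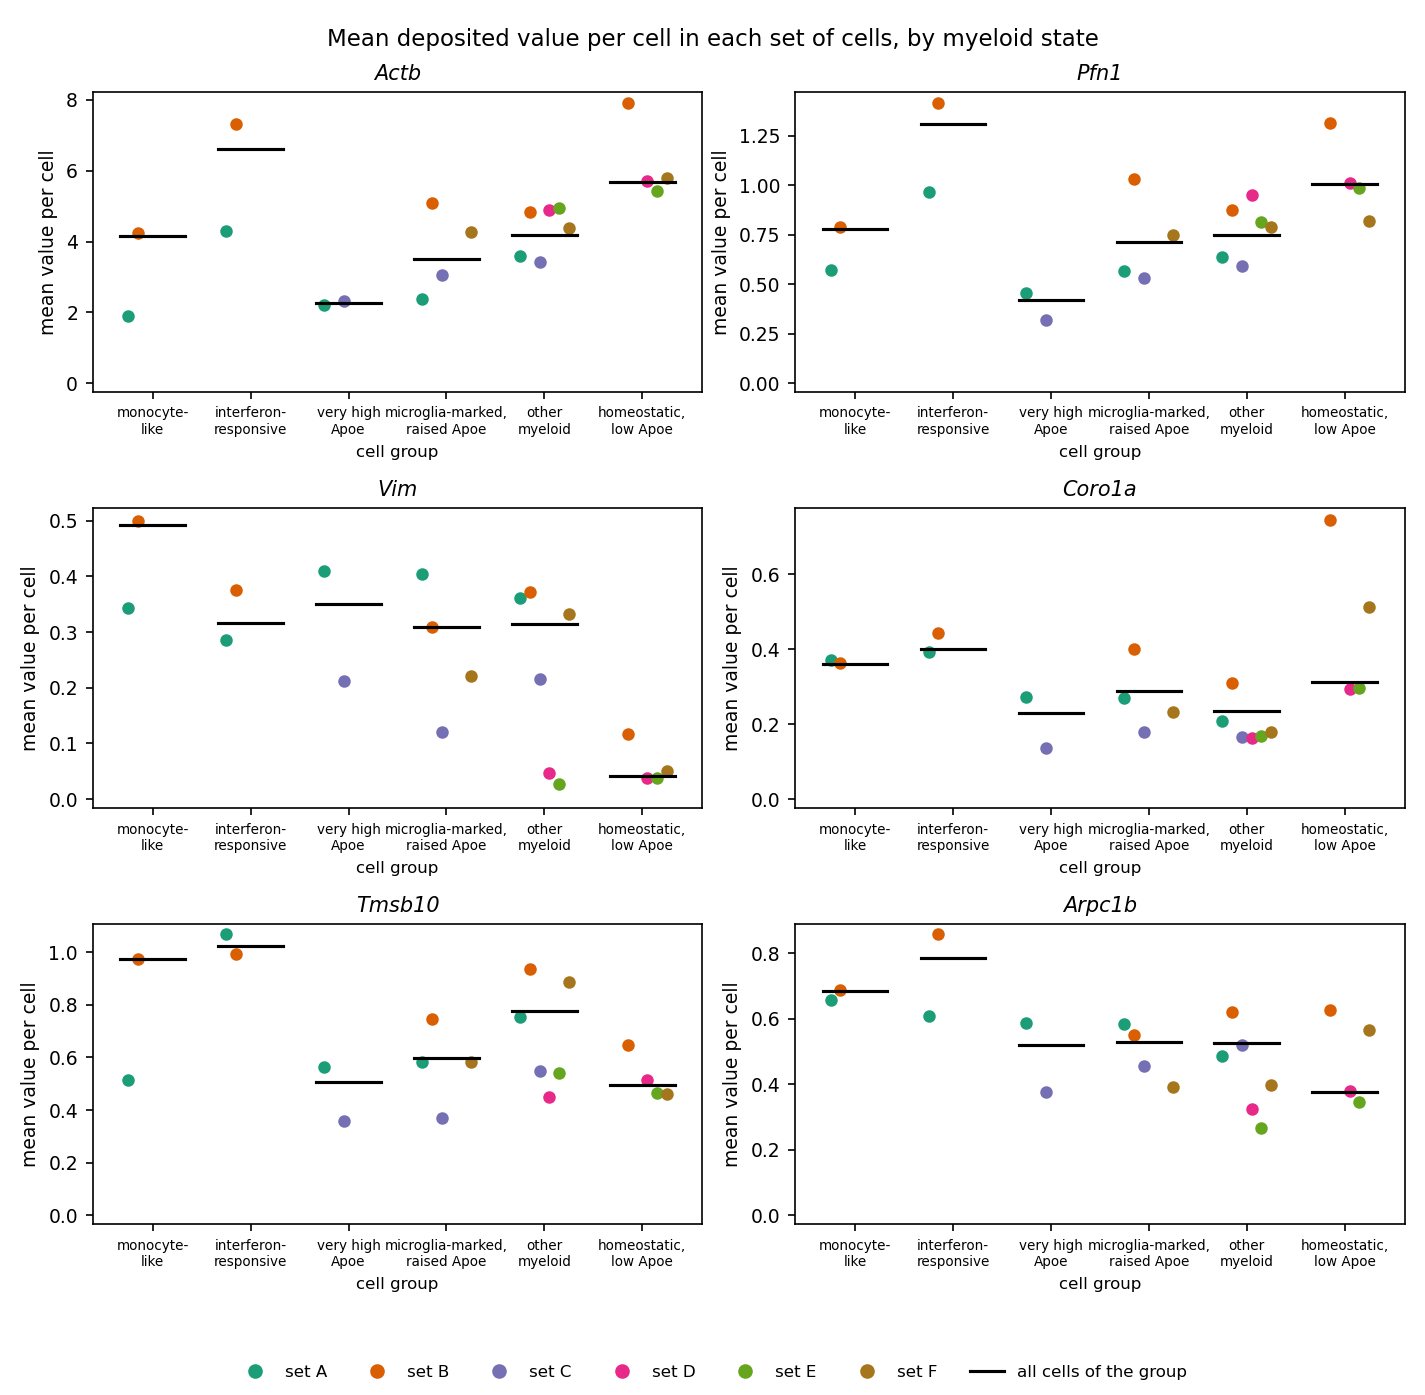
Mean value per cell of 6 genes in 5 myeloid states and, at the right, in homeostatic cells with low Apoe, for each set with 20 or more cells (coloured points) and over all cells of the state (black lines). Vim is lowest in homeostatic cells, 0.0410 over all sets, with equally low points for other myeloid cells of sets D and E, and the Coro1a points of sets B and F are highest in homeostatic cells, at 0.745 and 0.513.

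Counts at 2-fold against homeostatic cells were as follows. Interferon-responsive cells had 3 members higher (*Vim*, *Arpc1b*, *Tmsb10*) and none lower, beside 21.9% and 5.59% of 3631 genes. With values scaled to 10000 per cell, *Vim* alone remained, with *Arpc1b* at 1.95 and *Tmsb10* at 1.92 times, whereas monocyte-like cells then had 2 higher, *Vim* and *Tmsb10* (2.03 times). Very high *Apoe* cells had 1 higher (*Vim*) and 2 lower (*Actb*, *Pfn1*), beside 14.8% and 12.9% of 3167 genes. In each of the 3 other states, *Vim* alone was higher and none was lower, beside 16.7% and 11.7% of 3248 genes in monocyte-like cells, 12.1% and 5.61% of 3102 in raised *Apoe* cells, and 6.75% and 20.1% of 2668 in other myeloid cells. Together this made 9 of 50 pairs of member and state. Median ratios over the members were 1.11 in monocyte-like, 1.45 in interferon-responsive, 0.76 in very high *Apoe*, 0.90 in raised *Apoe* and 0.93 in other myeloid cells, beside 1.02, 1.28, 0.93, 0.99 and 0.74 over all genes tested. With values scaled to 10000 per cell, the member medians were 1.16, 1.34, 0.74, 0.89 and 1.07 in the same order. Those over all genes were then 1.06, 1.18, 0.92, 0.98 and 0.87. The member median of other myeloid cells thus moved from below to above 1. Genes above 0 per cell differed too, with medians of 594.5, 663, 603, 603 and 417, against 506 in homeostatic cells. The part of this in the ratios was not tested.

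The ratio of *Actg1* to *Actb* was 0.229 in very high *Apoe* cells (0.139 and 0.270 in 2 sets) and 0.210 in monocyte-like cells (0.210 and 0.273 in 2 sets), against 0.0888 in homeostatic cells (0.0619 to 0.119 over 4 sets), the lowest of the 6 states. The homeostatic range did not overlap those of the 2 states. *Actg1* itself was only 1.03 and 1.73 times as high in these states as in homeostatic cells. The very high *Apoe* values came from sets A and C, the homeostatic ones from sets B, D, E and F. State and set thus cannot be told apart for very high *Apoe* cells. Monocyte-like and homeostatic cells shared set B, where *Actb* was 4.25 and 7.92 and *Actg1* 0.891 and 0.941. The ratio of *Tmsb10* to *Tmsb4x* was 0.0544 in monocyte-like and 0.0512 in interferon-responsive cells, against 0.0298 in homeostatic cells (0.0289 to 0.0315 over 4 sets).

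Read along *Apoe* itself, *Actb*, *Actg1*, *Tmsb4x*, *Tmsb10*, *Cfl1*, *Pfn1* and *Arpc2* were lower in the highest than in the lowest *Apoe* bin of each of sets A, B, C and F. *Vim* was higher in mean value in the highest bin of each, though in set A not with values scaled without *Apoe*. Non-proliferating myeloid cells were binned by their *Apoe* value within each set. In set A, *Actb* was 5.11 at an *Apoe* value of 10 to 49, 2.88 at 50 to 99 and 2.15 at 100 and over, and in set C 4.83, 2.92 and 2.35. In set F it was 6.24 under 10, 5.60 at 10 to 49 and 2.77 at 50 to 99, whereas set B had 8.67, 4.54 and 4.60. *Actb* was thus lower in each higher bin of sets A, C and F, and level between the upper bins of set B. *Apoe* takes part of a cell's total. With values scaled to 10000 per cell after *Apoe* was taken out, *Actb* was 62.0, 34.6 and 22.0 in set A and 55.4, 37.8 and 31.5 in set C. *Pfn1* was 1.00, 0.505 and 0.482 over the 3 bins of set A and 0.889, 0.499 and 0.320 over those of set C, whereas in sets B (1.67, 0.839 and 0.991) and F (0.862, 1.02 and 0.503) it moved both ways. *Actg1* was 0.721, 0.524 and 0.598 in set A and 0.626, 0.379 and 0.322 in set C. *Cfl1* was 1.02, 0.530 and 0.486 and *Tmsb10* 0.762, 0.423 and 0.367 over the bins of set C. *Vim* stayed at 0.355, 0.351 and 0.418 in set A and at 0.200, 0.180 and 0.206 in set C, while in set F it was 0.0862, 0.234 and 0.344 over its 3 bins. Scaled to 10000 per cell without *Apoe*, *Vim* was 4.33 in the lowest and 4.20 in the highest bin of set A. In sets B, C and F it was still higher in the highest bin. *Tmsb4x* ran from 12.5 to 14.5 in set A and from 11.5 to 14.6 in set C, and was 24.0, 17.6 and 17.4 over the bins of set B and 17.3, 14.5 and 10.97 over those of set F.

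**Figure D4:**
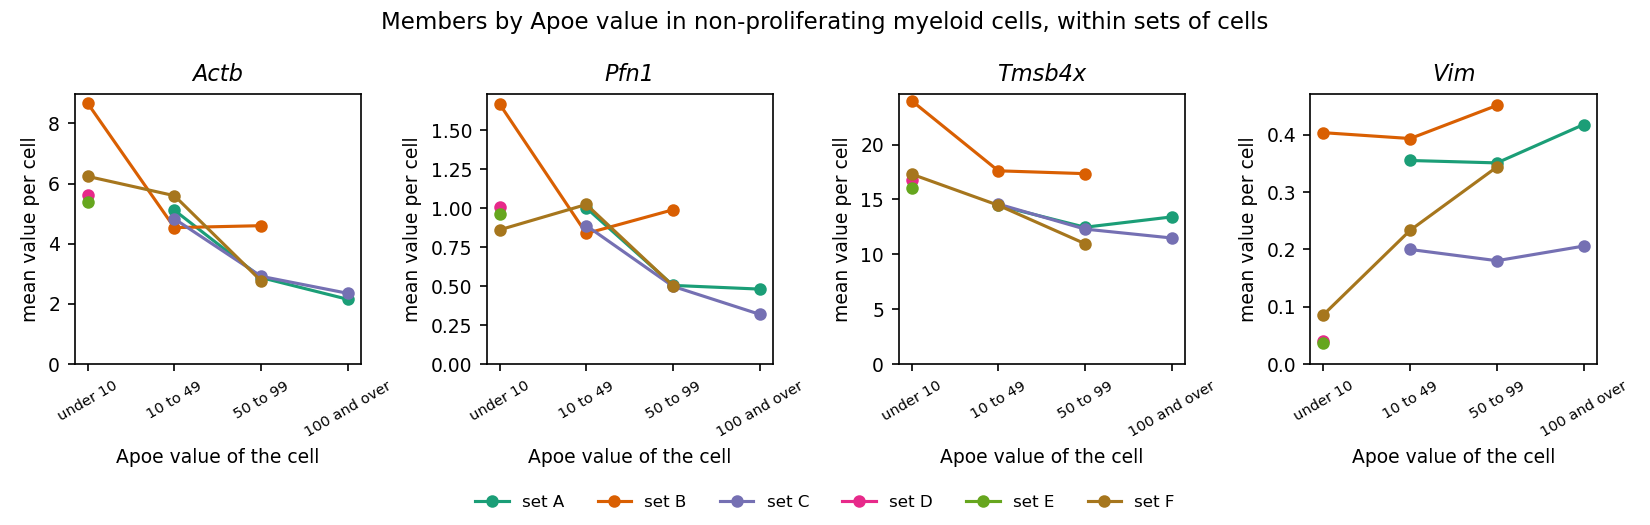
Mean value per cell of Actb, Pfn1, Tmsb4x and Vim in non-proliferating myeloid cells, by the cell's Apoe value (horizontal axis, low to high) in each set (colours), for bins of 20 or more cells. Actb declines along the bins of sets A, C and F, to 2.15 and 2.35 in the top bin of sets A and C, and Vim is no lower in the top bin than in the lowest one of sets A, B, C and F.

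Among genes of the 9 pathway lists, *Fscn1*, which bundles filaments in protrusions, was among the 3 lowest in all 5 states, and *Cyfip1*, a WAVE complex part, in 4 of them. *Fscn1* was 0.0242 in monocyte-like and 0.0294 in very high *Apoe* cells, against 0.229 in homeostatic cells. *Cyfip1* was 0.190 and 0.193, against 0.825. *Capg*, which caps filament ends in macrophages, and *Myo1e*, a membrane-bound myosin, were among the 3 highest in all 5 states: *Capg* was 0.311 to 0.431 in the states, against 0.0814 in homeostatic cells, and *Myo1e* 0.103 to 0.130, against 0.0262. *Myo1e* was above 0 in 2.44% of homeostatic cells and in 8.99 to 11.3% of the states, so it passed the 5% limit only through the states. *Fscn1* passed it only through the homeostatic cells (19.7% above 0), except in interferon-responsive cells (6.78%). Of the tested pathway genes, 8 of 77 were higher and 13 lower in monocyte-like cells (16.7% and 11.7% of all genes), 16 of 82 higher and 4 lower in interferon-responsive cells (21.9% and 5.59%), 5 of 76 higher and 26 lower in very high *Apoe* cells (14.8% and 12.9%), 3 of 76 higher and 12 lower in raised *Apoe* cells (12.1% and 5.61%), and 2 of 71 higher and 25 lower in other myeloid cells (6.75% and 20.1%).

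*Top2a* and *Mki67* encode proteins of chromosome untangling and of the mitotic chromosome surface, and a value above 0 of either marked a cell as proliferating. Of the 533 such cells, 424 lay in set B, and 439 were in the myeloid gate. All 10 members had a ratio above 1 against the 13081 other cells, and none reached 2-fold, beside 6.12% of 3331 genes higher and 1.23% lower. The median ratio was 1.44 over the members and 1.21 over all genes tested, and 1.33 and 1.14 with values scaled to 10000 per cell. In the myeloid gate, again none of the 10 was at 2-fold, beside 8.2% of 3220 genes higher and 0.87% lower. The 4 members at 1.5-fold or more were *Pfn1* (1.76 times), *Actg1* (1.66 times), *Cfl1* (1.58 times) and *Coro1a* (1.51 times), beside 26.5% of genes at 1.5-fold or more higher. Proliferating myeloid cells had more genes above 0 (median 616) than the others (512), and the part of this in the ratios was not tested.

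Within set B, which held 371 of the proliferating myeloid cells, *Pfn1* and *Cfl1* differed most. *Pfn1* was 1.39 in proliferating and 0.905 in other myeloid cells of set B, and 0.722 and 0.557 in set A. *Cfl1* was 1.39 and 1.00 in set B, and 0.889 and 0.728 in set A. *Actb* was 6.0 and 4.84 in set B, and 3.56 and 2.77 in set A. Each of the 3 was higher in proliferating cells of both sets, the only sets with 20 or more such cells. *Vim* was 0.302 and 0.396 in set B, and 0.444 and 0.388 in set A, so it changed direction between them, and *Coro1a* did so too, with 0.439 and 0.353 in set B and 0.194 and 0.251 in set A. *Tmsb10* was 0.957 and 0.915 in set B, and 1.06 and 0.643 in set A.

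**Figure D5:**
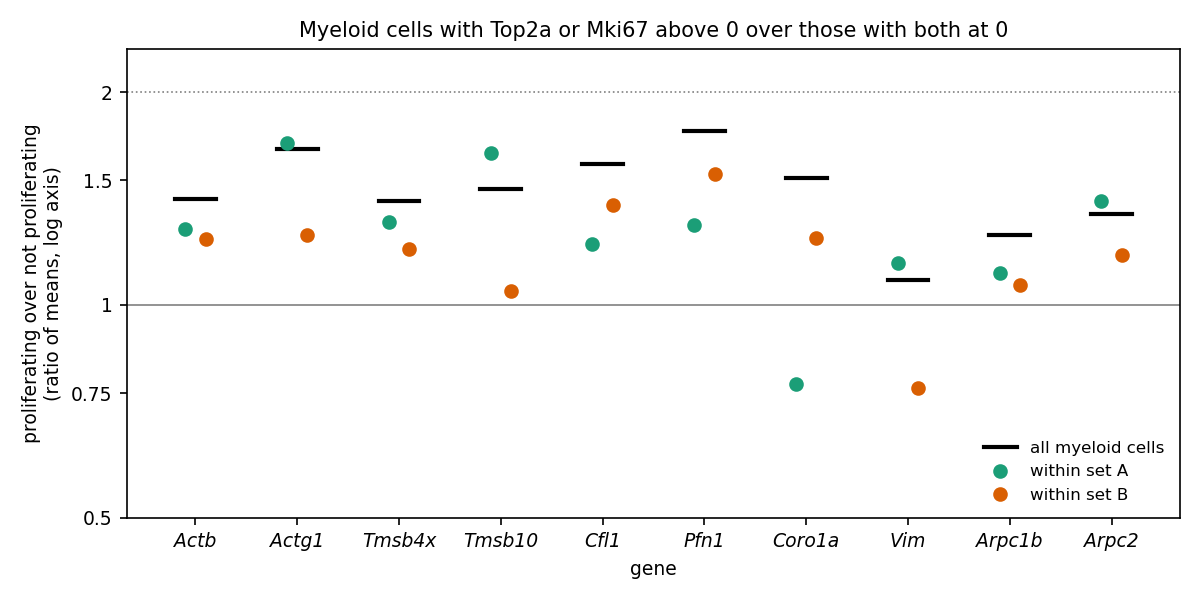
Ratio of the mean value in proliferating to that in other myeloid cells (log axis) for each gene, over all myeloid cells (black lines) and within sets A and B (points). All points lie under the dotted line at 2, Pfn1 and Cfl1 lie above 1 in both sets, and Vim in set B and Coro1a in set A lie below 1, at 0.763 and 0.774.

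Bins of gene number within set B gave values between cells of like gene number. Among its myeloid cells with 400 to 599 genes, the ratio of proliferating to other cells was 1.08 for *Actb*, 1.10 for *Tmsb4x*, 1.22 for *Pfn1*, 1.38 for *Cfl1* and 0.71 for *Vim*. With 600 to 799 genes it was 1.22, 1.12, 1.45, 1.11 and 0.65. *Pfn1* and *Cfl1* were higher in all 4 bins of gene number in set B, at 1.22 to 1.66 and 1.11 to 1.89 times. In monocyte-like cells of set B (99 proliferating, 906 not), the members were at 0.77 to 1.15 times, with *Vim* the lowest and *Cfl1* the highest. In other myeloid cells of set B (146 and 1357), *Pfn1* was 1.88 times as high, the largest ratio of *Pfn1* over the states of this set. It was 1.58 in interferon-responsive (30 and 120), 1.29 in homeostatic (20 and 51), 1.17 in raised *Apoe* and 1.02 in monocyte-like cells.

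Of the pathway lists, 2 tubulins and a nuclear lamin had the highest ratios in proliferating cells of the myeloid gate. *Tuba1c* was 0.257 in proliferating and 0.0344 in other myeloid cells, *Tubb4b* 0.264 and 0.0453, and the lamin *Lmnb1* 0.153 and 0.0283. These 3 genes were above 0 in 12.8 to 20.7% of proliferating and 2.76 to 4.18% of other myeloid cells, so they passed the 5% limit only through the proliferating cells. Over all 9 lists, 8 of 79 tested genes were higher and 1 lower, *Fscn1*, at 0.0251 in proliferating and 0.0716 in other myeloid cells, beside the 8.2% higher and 0.87% lower of all genes, so that the count lay near the background. *Fscn1* was above 0 in 2.28% of proliferating and 6.23% of other myeloid cells, so it passed the 5% limit only through the latter.

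Over the 7 types and 6 states (13 groups, of which the states are parts of the myeloid gate), *Coro1a* was most like *Arhgap30* (r = 0.961), *Apbb1ip* (r = 0.958) and *Rasal3* (r = 0.956) by the Pearson correlation of log2 mean values, among genes outside all lists. *Actb* was most like *Tmem173* (r = 0.939), *Vim* like *Anxa2* (r = 0.924), *Tmsb4x* like *Ssr2* (r = 0.936), *Arpc1b* like *B2m* (r = 0.935) and *Arpc2* like *Cmtm7* (r = 0.943). The likest genes of *Pfn1* (*Fcgr1*, r = 0.895), *Actg1* (*Sod2*, r = 0.888), *Cfl1* (*Phgdh*, r = 0.867) and *Tmsb10* (*Sfpq*, r = 0.862) were less close. Among the members, *Tmsb4x* and *Cfl1* were closest (r = 0.918), followed by *Tmsb4x* and *Arpc1b* (r = 0.898) and *Actb* and *Pfn1* (r = 0.870). The groups share libraries and free RNA, so these values describe these groups only.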

How the data were processed

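Per the submitters' notes and methods, Cell Ranger 7.1.0 (GRCm38) gave UMI counts that included introns, and Seurat 4.3.0.1 was used on the merged libraries. The authors deposited 1 table of whole numbers, treated here as a score per gene and cell and not as counts, so that the sequencing depth is unknown and no count model was fitted. Exact binomial intervals cover counting error only.

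A gate needed 3 or more markers of a non-myeloid type and more than of any other, or 5 of 13 myeloid markers and fewer than 3 of every other type. Ties and cells of another type with 8 or more myeloid markers were left out, no doublet caller was run, and types under 50 cells got no values. States needed 2 monocyte, 4 interferon, 3 border macrophage or 3 homeostatic markers, in this order, before the *Apoe* limits, and 7 border macrophages got no values. Ratios are of mean values, over genes above 0 in at least 5% of cells of either group, and called means 2-fold. All 10 members are described. From the pathway lists, the 3 genes with the highest and the 3 with the lowest ratio per comparison could be named, and for likeness the 3 closest genes per member, on log2(mean + 0.01). Members, lists and gates were chosen with earlier results of these data known. The ratio calculation was run on simulated Poisson values with known folds. This checks the calculation only, since the simulation held no sets and no free RNA. Python 3.11.15, numpy 2.4.6, scipy 1.17.1 and pandas 2.3.3 were used.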

Additional observations from a re-analysis of the deposited data

How the results depend on the processing

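No ratio of a member that was at 2-fold or more turned round under any alternative that was run. The ratios within each set were not among these alternatives, and some turned round there. Vim in other myeloid against homeostatic cells was 7.67 over all cells, but lower in 1 of 4 sets (0.702). Vim in oligodendrocytes against myeloid cells was 0.469, but higher in 1 of 6 sets (1.61). Of 1990 recomputed ratios, 206 moved by more than their allowance and 95 changed direction at any size, 7 of them with a ratio of 1.25-fold or more in the main values. Single sets turned 2 of these: Arpc2 in interferon-responsive against homeostatic cells was 1.28, against 0.83 without set B, and Arpc1b in very high Apoe against homeostatic cells 1.38, against 0.98 without set A. Members highest in the myeloid gate numbered 3, against 5 with gate minimums of 2 (myeloid 4) and 5 with sets weighted equally. Members at 2-fold between myeloid and all other gated cells numbered 1, against 3 with gate minimums of 4 (myeloid 6), 3 with the stated filters, 2 with sets weighted equally, 2 without Mobp as a marker (chosen after seeing the data), 8 at 1.5-fold and 0 to 3 with a set left out. State pairs at 2-fold numbered 9 of 50 (the shares over all genes are given by state above), against 16 at 1.5-fold. Proliferating cells had 0, against 4 at 1.5-fold and 4 where Top2a and Mki67 were both above 0. For the 1.5-fold counts of states and of all proliferating cells, no share over all genes is given. The same holds for the count with both markers, so nothing about the members is read from these counts. With Apoe limits of 20 and 200, no count over all states could be given. No paired analysis was possible because cells could not be tied to libraries and no group was tested. Few cells per set limit the values of T or NK cells, astrocytes and ependymal cells, and pericytes or smooth muscle cells had no set with 20.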
